A study of Mus musculus with 23 samples.

Results

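The 10 genes described here carry the MHC class I presentation pathway: H2-K1, H2-D1, B2m, Tap1, Tap2, Tapbp, Psmb8, Psmb9, Psmb10 and Nlrc5. They were chosen by name, not by their values, out of 47311 genes summed from the deposited transcript estimates, and all 10 passed the filter on low counts that 19882 genes passed. Class I molecules show peptides from inside the cell to CD8 T cells. The proteasome cuts proteins into peptides, the TAP transporter moves the peptides into the endoplasmic reticulum, and tapasin helps load them onto a heavy chain paired with beta-2 microglobulin. Interferon gamma, released by activated T cells and NK cells, induces these genes, and NLRC5 is the transactivator of class I genes.

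Sequenced RNA came from mammary fat pad next to an E0771-luciferase tumor, a C57BL/6 mouse mammary carcinoma line, in 23 female C57BL/6J mice with 1 library per mouse. The 4 groups were obese mice given anti-PD-1 (n = 8), obese mice given the IgG2a isotype control (n = 5), lean mice given anti-PD-1 (n = 5) and lean mice given IgG2a (n = 5). Obese mice ate a diet with 60% of its energy from fat, and lean mice one with 10%. The labels give the high-fat feeding as running between 8 and 26 weeks of age. All mice, in every group, received 250000 tumor cells in mammary gland 4, and antibody injections of 200 µg started on day 3 and were repeated at intervals of 3 days. Every group was sacrificed on day 21. Anti-PD-1 blocks an inhibitory receptor of T cells. The labels name no batch, and replicate numbers were given in accession order, so they pair no libraries.

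The libraries held 49438121 to 77369057 estimated counts each. They fell into sets by lymphoid RNA. The mean log2 CPM (normalised read counts) of 8 B cell genes was 5.31 or more in 11 libraries and -0.63 or less in 12. The 11 libraries above a score of 4 were 2 of 8 obese anti-PD-1, 2 of 5 obese IgG2a, 3 of 5 lean anti-PD-1 and 4 of 5 lean IgG2a libraries. The 6 marker genes of lymph node stroma, among them Glycam1 and Ccl21a, summed to 359 to 3866 CPM in those 11 libraries and to 0.543 to 3.88 CPM in the other 12. Obese IgG2a libraries 2, 4 and 5 held Hmga2, a gene of embryonic and tumor cells, at 94.2, 19.0 and 170 CPM, against 5.84 CPM or less in every other library. Obese IgG2a library 5 also held the liver gene Alb at 6363 CPM, against 222 CPM or less elsewhere. Adipocyte markers were high in all 23 libraries, with a summed 4739 to 47970 CPM. Over all tested genes, 1034 rose and 965 fell in obese against lean mice under anti-PD-1, while a fit on log2(TPM + 1) called 3155 and 421, with an all-gene median of 0.27 there and 0.075 in the edgeR fit.

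Per length, the class I structural genes were far more abundant than the genes that feed them. Across the 23 libraries, B2m had a median of 3495 TPM (length-scaled abundance), H2-D1 1552 TPM and H2-K1 1519 TPM. Tapbp followed with 201 TPM and Psmb8 with 163 TPM. As sums over all transcripts, Tap2 (82.2 TPM), Psmb10 (80.8 TPM), Psmb9 (57.8 TPM) and Tap1 (48.5 TPM) lay close together. In Tap2 a retained-intron transcript averaged 64.4 TPM and the main protein-coding one 14.6 TPM. The main protein-coding transcript averaged 52.4 TPM in Psmb9 and 30.3 TPM in Tap1. Nlrc5 was lowest of the gene sums with 24.5 TPM. The ranges of neighbours in this order overlapped: H2-D1 spanned 763 to 1856 TPM and H2-K1 923 to 2388 TPM, and Tap2 spanned 54.9 to 124 TPM and Psmb10 42.2 to 185 TPM. B2m, at 2667 to 5036 TPM, stood above every value of the other 9.

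**Figure D1:**
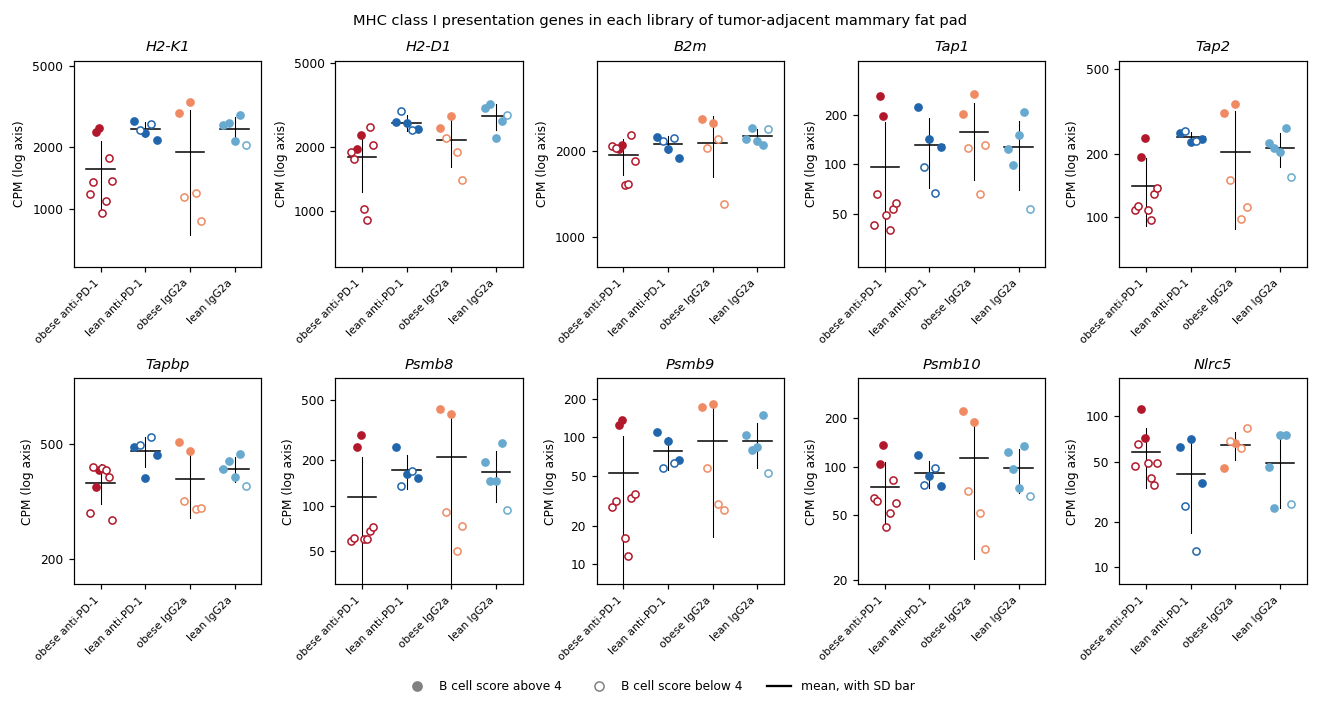
CPM (log axis) of each of the 10 genes in each library, by diet and antibody, with the group mean and SD; an SD bar that would reach 0 or less is drawn upward only. Filled points are the libraries with a B cell score above 4; Psmb8, Psmb9 and Tap1 lie highest in these.

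H2-K1 and H2-D1 are the classical heavy chains of this strain. H2-K1 lies on chromosome 17 at 33996017 to 34000347 (GRCm38, minus strand) and H2-D1 at 35262730 to 35267499 (plus strand). They share sequence: of 31-base windows in the main transcript, 16.9% in H2-K1 also occur in H2-D1, and 12.9% in H2-D1 occur in H2-K1. Windows found in any other gene made up 23.4% in H2-K1 and 27.4% in H2-D1, the latter spread over 563 genes. The split of reads between heavy chains is therefore uncertain. The promoters of H2-K1 and H2-D1 are given because they carry the same motifs, together with that of B2m. The promoter of H2-Q10, a secreted class Ib heavy chain whose level is given further on, is also given. The sequences are RefSeq windows on GRCm38.p6, with 250 bases before and 50 after the annotated start, and 8 of the 10 genes had one. Capitals mark motif matches on either strand: the NF-kappaB site of the class I enhancer, AANNGAAA (the core that interferon regulatory factors bind), the interferon-stimulated response element (which contains AANNGAAA), TTCNNNGAA (a gamma-activated site), TGACG (a CREB-type core) and CCAAT.
H2-K1, chr17:34000298-34000597, minus strand: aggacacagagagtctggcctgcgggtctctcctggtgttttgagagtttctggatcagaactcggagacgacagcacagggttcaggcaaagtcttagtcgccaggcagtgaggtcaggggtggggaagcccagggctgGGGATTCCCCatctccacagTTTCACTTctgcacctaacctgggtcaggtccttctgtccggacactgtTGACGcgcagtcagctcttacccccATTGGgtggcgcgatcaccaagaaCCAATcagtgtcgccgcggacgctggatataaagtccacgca
H2-D1, chr17:35262844-35263143, plus strand: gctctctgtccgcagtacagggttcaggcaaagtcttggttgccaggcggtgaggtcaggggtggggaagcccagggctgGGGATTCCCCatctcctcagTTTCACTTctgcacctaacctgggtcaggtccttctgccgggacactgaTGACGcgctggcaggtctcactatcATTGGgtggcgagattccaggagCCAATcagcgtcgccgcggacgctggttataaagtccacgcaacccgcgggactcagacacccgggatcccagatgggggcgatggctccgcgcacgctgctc
B2m, chr2:122147437-122147736, plus strand: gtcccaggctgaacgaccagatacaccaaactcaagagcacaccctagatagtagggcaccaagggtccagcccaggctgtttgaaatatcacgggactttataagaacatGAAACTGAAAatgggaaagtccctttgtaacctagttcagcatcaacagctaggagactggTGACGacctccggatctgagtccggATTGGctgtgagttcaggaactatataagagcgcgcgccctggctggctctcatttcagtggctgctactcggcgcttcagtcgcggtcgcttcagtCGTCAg
H2-Q10, chr17:35469839-35470138, plus strand: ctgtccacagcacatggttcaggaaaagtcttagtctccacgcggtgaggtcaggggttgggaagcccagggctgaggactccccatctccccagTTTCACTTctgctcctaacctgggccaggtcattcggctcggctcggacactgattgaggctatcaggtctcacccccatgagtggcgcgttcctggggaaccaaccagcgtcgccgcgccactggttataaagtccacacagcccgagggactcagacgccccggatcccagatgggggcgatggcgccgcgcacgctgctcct
H2-K1 and H2-D1 each held the NF-kappaB site once, a motif found in 0.09% of 32851 promoter windows. Both also held AANNGAAA (23.92% of windows), TGACG (20.81%) and CCAAT (37.41%). B2m, the light chain on chromosome 2, held the interferon-stimulated response element (3.44% of windows), TGACG and CCAAT, and no such NF-kappaB site. The H2-Q10 window held AANNGAAA once and none of the other motifs. TTCNNNGAA, in 8.30% of windows, occurred in none of these 4 windows. A match describes the letters only.

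H2-K1 was lower in obese mice by less than the test's threshold. It had 953 CPM at the lowest, 1362 at the median and 2490 at the highest in obese anti-PD-1 libraries, against 2709, 2441, 2359, 2609 and 2178 CPM in lean anti-PD-1 libraries. Only obese anti-PD-1 libraries 3 and 4 reached the lean range, and both scored above 4 for B cell genes. The log2 difference was -0.64 (SE 0.31, edgeR quasi-likelihood test, adjusted p = 0.201). Under IgG2a, obese libraries had 2939, 1138, 3332, 1200 and 867 CPM, against 2588, 2628, 2145, 2888 and 2066 CPM in lean libraries. Here the obese libraries split into a pair above all lean ones and 3 below all lean ones, and the log2 difference was -0.38 (SE 0.35, adjusted p = 0.648).

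H2-D1 had 903 CPM at the lowest, 1927 at the median and 2488 at the highest in obese anti-PD-1 libraries, against 2624, 2964, 2611, 2406 and 2437 CPM in lean anti-PD-1 libraries. The groups overlapped in 1 obese library, and the log2 difference was -0.54 (SE 0.24, adjusted p = 0.170). Under IgG2a the obese libraries ran between 1398 and 2798 CPM and the lean ones between 2199 and 3208 CPM, with a log2 difference of -0.38 (SE 0.27, adjusted p = 0.519). B2m stayed within 1515 to 2281 CPM in obese anti-PD-1 libraries and 1900 to 2249 CPM in lean anti-PD-1 libraries. Its log2 differences were -0.13 (SE 0.19, edgeR adjusted p = 0.763) under anti-PD-1 and -0.079 (SE 0.21, adjusted p = 0.921) under IgG2a, and on log2(TPM + 1) they were 0.36 and 0.22.

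The transporter and loading genes lie in the same cluster. Tap1 (chromosome 17, 34187553 to 34197225) and Tap2 (34203527 to 34216321) encode the subunits of the peptide transporter, and Tapbp (33915899 to 33929292) encodes tapasin. Tap2 had 97.4 CPM at the lowest, 121 at the median and 238 at the highest in obese anti-PD-1 libraries, against 251, 255, 228, 229 and 236 CPM in lean anti-PD-1 libraries. Of the 8 obese libraries, 7 lay below every lean library. The log2 difference was -0.77 (SE 0.27, adjusted p = 0.0766), the smallest adjusted p of the 10 genes, and it passed the threshold in 5 alternatives given in the closing part. Under IgG2a, Tap2 had 313, 151, 344, 98.5 and 113 CPM in obese libraries, against 225, 214, 203, 264 and 155 CPM in lean libraries, with a log2 difference of -0.060 (SE 0.31, adjusted p = 0.964). A retained-intron transcript held 76.4% of the Tap2 counts.

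Tap1 varied more within groups than between them. It had 39.9 CPM at the lowest, 55.7 at the median and 259 at the highest in obese anti-PD-1 libraries, against 224, 95.9, 143, 66.8 and 127 CPM in lean anti-PD-1 libraries. Its log2 difference was -0.45 (SE 0.46, adjusted p = 0.627) under anti-PD-1 and 0.32 (SE 0.52, adjusted p = 0.844) under IgG2a. Tapbp had 271 to 416 CPM in obese anti-PD-1 libraries, against 382 to 528 CPM in lean anti-PD-1 libraries, and its log2 difference was -0.36 (SE 0.17, adjusted p = 0.199). The Tapbp difference had the opposite sign on log2(TPM + 1), 0.54. A transcript of 413 bases ran between 0 and 212 TPM in that sum.

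Psmb8, Psmb9 and Psmb10 are the catalytic subunits that interferon gamma places in the immunoproteasome, in the positions of Psmb5, Psmb6 and Psmb7. Psmb9 lies at 34181987 to 34187764 on chromosome 17 and shares 212 bases with Tap1 on the opposite strand, which these non-directional libraries cannot separate. Psmb8 lies at 34197721 to 34201454, and Psmb10 on chromosome 8 at 105935735 to 105938444. Psmb8 had 58.2 CPM at the lowest, 64.6 at the median and 292 at the highest in obese anti-PD-1 libraries, against 245, 134, 162, 169 and 152 CPM in lean anti-PD-1 libraries. All obese libraries but 3 and 4 lay below every lean one, and library 4 lay above every lean one. The log2 difference was -0.59 (SE 0.51, edgeR adjusted p = 0.541). Under IgG2a, Psmb8 had 432, 90.1, 403, 50.3 and 73.4 CPM in obese libraries, against 193, 146, 145, 259 and 93.7 CPM in lean libraries. The obese values fell on both sides of the lean ones without reaching into their range (log2 difference 0.32, SE 0.57, adjusted p = 0.862).

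Psmb9 followed the same split, with 11.6 CPM at the lowest, 32.3 at the median and 138 at the highest in obese anti-PD-1 libraries, against 110, 57.8, 92.7, 62.5 and 66.1 CPM in lean anti-PD-1 libraries. The log2 difference was -0.57 (SE 0.54, adjusted p = 0.595). Psmb10 had 42.3 to 137 CPM in obese anti-PD-1 libraries, against 76.4 to 118 CPM in lean anti-PD-1 libraries, with a log2 difference of -0.28 (SE 0.37, adjusted p = 0.730) that was 0.14 on log2(TPM + 1). Of the constitutive subunits, Psmb5 fell under anti-PD-1 (log2 difference -0.94, SE 0.30, adjusted p = 0.0470), with 40.2 CPM at the lowest, 68.1 at the median and 110 at the highest in obese mice, against 106 to 172 CPM in lean mice. That call ended when most of the single libraries were left out in turn. Psmb6 and Psmb7 had log2 differences of -0.66 and -0.55 there, with adjusted p of 0.0610 and 0.102.

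Nlrc5 (chromosome 8, 94434356 to 94527272) had positive log2 differences under both antibodies. It had 34.8 CPM at the lowest, 49.1 at the median and 111 at the highest in obese anti-PD-1 libraries, against 62.8, 25.3, 70.8, 12.8 and 36.0 CPM in lean anti-PD-1 libraries. Under IgG2a it had 45.6, 68.2, 66.4, 61.6 and 83.1 CPM in obese libraries, against 46.2, 24.7, 74.8, 74.7 and 26.4 CPM in lean libraries. The groups overlapped under both antibodies, and the log2 differences were 0.49 (SE 0.37, adjusted p = 0.462) and 0.40 (SE 0.40, adjusted p = 0.690). A retained-intron transcript held 34.9% of its counts.

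**Figure D2:**
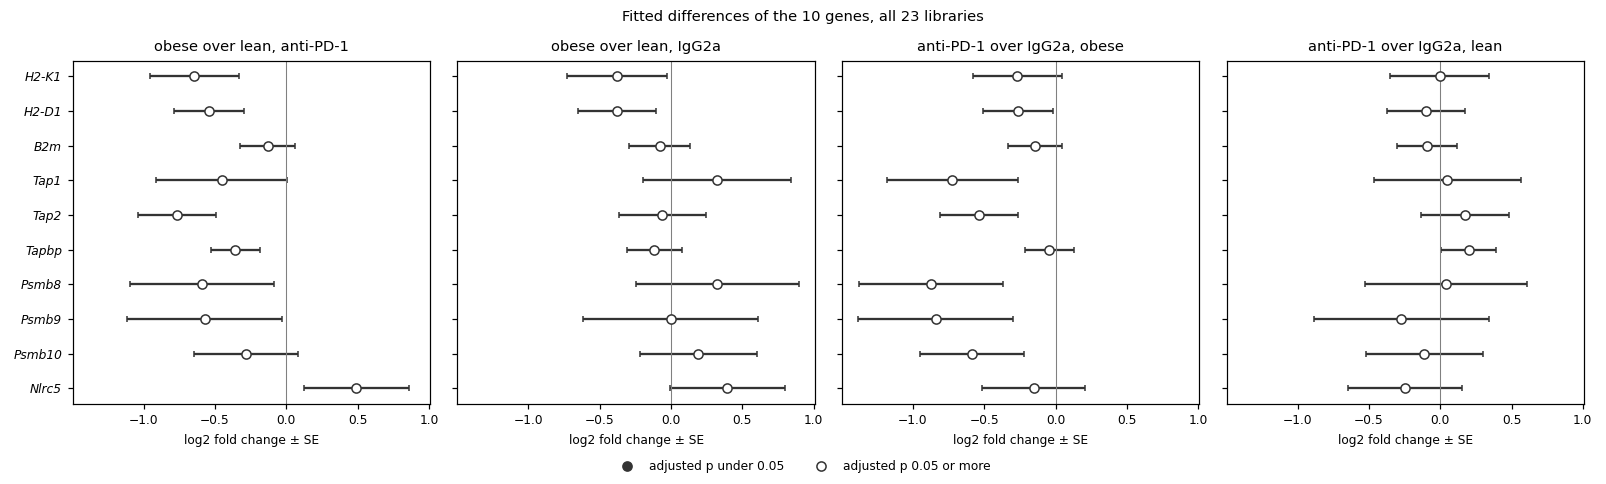
Log2 fold change with SE of each gene in the comparisons between 2 groups, from the edgeR fit on all 23 libraries. Open symbols are adjusted p of 0.05 or more, which holds for all 40 values; under anti-PD-1 every gene but Nlrc5 lies left of 0 in obese against lean mice, and B2m, Tapbp and Psmb10 have the opposite sign on log2(TPM + 1).

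Counted over the 10 genes, obesity under anti-PD-1 gave 9 lower and 1 higher value, with a median log2 difference of -0.50 beside 0.075 over all tested genes. The signs of B2m, Tapbp and Psmb10 turned on log2(TPM + 1). None of the 10 passed an adjusted p of 0.05 in edgeR, where 10.1% of all tested genes did. An unadjusted p under 0.05 was found for 4 (H2-K1, H2-D1, Tap2 and Tapbp), beside 4876 of all 19882 tested genes. DESeq2 called 0 of 10, beside 3117 of all genes. Obesity under IgG2a gave 6 lower and 4 higher values, with a median of -0.031 beside 0.12 over all tested genes, and B2m, Tap2 and Tapbp had the opposite sign on log2(TPM + 1). Again none passed in edgeR, where 5.79% of all tested genes did. Of the 10, 0 had an unadjusted p under 0.05, beside 3929 of all tested genes. DESeq2 called 0, beside 2075 of all genes. The groups of all 10 genes overlapped under both antibodies, where 4.82% (anti-PD-1) and 6.25% (IgG2a) of all tested genes had groups that did not. The antibody comparisons and the obesity comparisons share groups, so their values are given side by side only.

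Anti-PD-1 against IgG2a asked whether checkpoint blockade changed the pathway. In obese mice all 10 genes were lower with anti-PD-1, with log2 differences between -0.88 for Psmb8 (SE 0.51) and -0.045 for Tapbp (SE 0.17). Those of H2-K1, B2m and Tapbp turned positive on log2(TPM + 1). None passed in edgeR, where 0.538% of all tested genes did, nor in DESeq2, which called 400 of all genes. Of the 10, 0 had an unadjusted p under 0.05, beside 2700 of all tested genes. In lean mice the differences ran between -0.27 for Psmb9 (SE 0.61) and 0.20 for Tapbp (SE 0.19), and 0 of 10 passed, beside 0% of all tested genes. There 472 genes had an unadjusted p under 0.05 and DESeq2 called 22, none among the 10. The antibody effect in obese minus that in lean mice ran between -0.92 for Psmb8 (SE 0.77) and 0.095 for Nlrc5 (SE 0.54), again with 0 of 10 passing beside 0% of all genes; 1449 genes had an unadjusted p under 0.05 and DESeq2 called 50. High B cell scores were found in 2 of 8 obese anti-PD-1 and 2 of 5 obese IgG2a libraries. Fits by set and with the score as a covariate gave some of the 10 genes the opposite sign in obese mice, as listed in the closing part. The cause of those changes was not tested.

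In CPM, all 10 genes had a higher median in the 11 libraries scoring above 4 than in the other 12, and the ranges overlapped for every gene but Psmb9. In TPM, the medians of B2m (3434 and 3707) and Tapbp (183 and 266) were the other way round, and Psmb9 overlapped as well. Psmb9 ran between 66.1 and 182 CPM in the first set and between 11.6 and 62.5 CPM in the second. Psmb8 ran between 145 and 432 CPM and between 50.3 and 169 CPM. B2m, at 1900 to 2604 and 1308 to 2402 CPM, and Tapbp, at 354 to 507 and 271 to 528 CPM, overlapped widely. These sets were drawn from the data and received no test against each other. In bulk RNA, fewer cells of a type and less RNA per cell cannot be told apart.

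**Figure D3:**
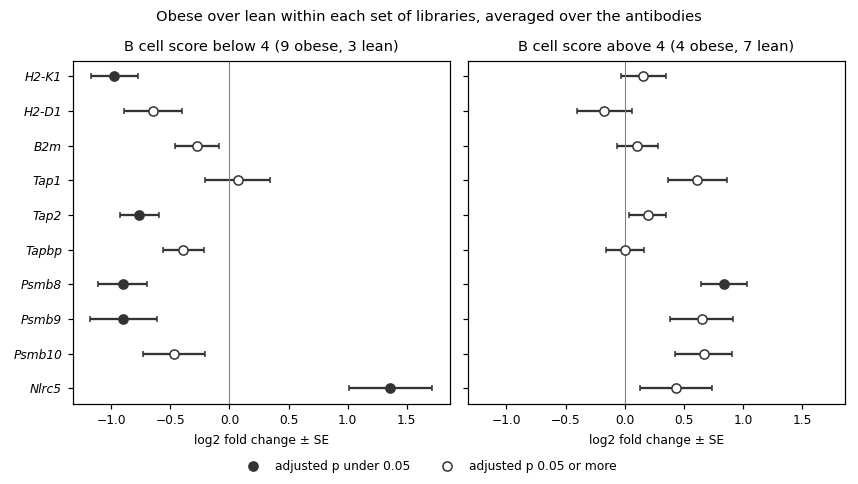
Log2 fold change with SE, obese over lean and averaged over the antibodies, for the 12 libraries with a B cell score below 4 and the 11 above it. Both panels come from the same fit on all 23 libraries. Filled symbols passed an adjusted p of 0.05: 5 genes in the first set and Psmb8 in the second.

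Within the sets, obese and lean mice separated for several genes. This comparison was added after the values had been seen, it averages the antibodies, and the set with a low score holds only 3 lean libraries against 9 obese ones. The log2 differences of both sets came from the same fit on all 23 libraries, with an obesity effect for each set. The sets therefore share the estimate of the spread, and the antibody effect within a diet was taken as equal in both. In that set H2-K1 ran between 867 and 1768 CPM in obese libraries, against 2066 to 2609 CPM in lean libraries, and fell with a log2 difference of -0.97 (SE 0.20, adjusted p = 0.00183). Tap2 fell by 0.76 (SE 0.17, adjusted p = 0.00307), with 97.4 to 151 CPM in obese libraries, against 155 to 255 CPM in lean libraries. Both genes were lower in each of the 9 obese libraries than in any of the 3 lean ones. The share of all tested genes without overlap in this set was not counted, so separation from only 3 lean libraries has no background value here.

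Of the immunoproteasome subunits, Psmb8 and Psmb9 were called in the low-score set and Psmb10 was not. Psmb8 fell by 0.90 (SE 0.21, adjusted p = 0.00438), with 50.3 to 90.1 CPM in obese libraries, against 93.7 to 169 CPM in lean libraries. Psmb9 fell by 0.90 (SE 0.28, adjusted p = 0.0268), with 11.6 to 57.2 CPM in obese libraries, against 52.2 to 62.5 CPM in lean libraries, so that its groups overlapped. Psmb10 had a log2 difference of -0.47 (SE 0.26, adjusted p = 0.201). Constitutive subunits were called there too: Psmb5 fell by 0.99 (SE 0.32, adjusted p = 0.0305) and Psmb6 by 0.81 (SE 0.23, adjusted p = 0.0163), while Psmb7 had -0.58 (SE 0.25, adjusted p = 0.0971). Nlrc5 rose by 1.36 (SE 0.35, adjusted p = 0.00952), with 34.8 to 83.1 CPM in obese libraries, against 12.8 to 26.4 CPM in lean libraries, with no overlap. These 5 of 10 calls stand beside 22.2% of all tested genes called and an all-gene median of 0.21. On log2(TPM + 1), where that median was 0.40, only Nlrc5 of the 5 was called (1.54, adjusted p = 0.00640), and H2-K1, Tap2, Psmb8 and Psmb9 had differences of -0.34, -0.082, -0.24 and -0.51. Leaving out lean anti-PD-1 library 4 ended the edgeR calls of Psmb8 (adjusted p = 0.0586), Psmb9 (0.124) and Nlrc5 (0.0728); leaving out lean anti-PD-1 library 2 or lean IgG2a library 5 also ended that of Psmb9 (0.0715 and 0.0662), and leaving out obese IgG2a libraries 2 and 5 together that of Nlrc5 (0.0550).

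In the high-score set, with 4 obese and 7 lean libraries, the picture differed. Psmb8 rose by 0.84 (SE 0.19, adjusted p = 0.00503), with 244 to 432 CPM in obese libraries, against 145 to 259 CPM in lean libraries, and stayed called without any single library. It was the 1 gene of 10 called there, beside 15.9% of all tested genes. H2-K1 had 2377 to 3332 CPM in obese libraries, against 2145 to 2888 CPM in lean libraries (log2 difference 0.16, SE 0.19, adjusted p = 0.616). The obesity effect in the high-score set minus that in the low-score set was 1.74 for Psmb8 (SE 0.29, adjusted p = 0.00336), 1.55 for Psmb9 (SE 0.39, adjusted p = 0.0186), 1.13 for H2-K1 (SE 0.28, adjusted p = 0.0172) and 0.96 for Tap2 (SE 0.23, adjusted p = 0.0162). These 4 of 10 passed where 8.87% of all tested genes did. On log2(TPM + 1) the differences of H2-K1 (0.61, adjusted p = 0.0691) and Tap2 (0.38, adjusted p = 0.335) no longer passed, and without lean anti-PD-1 library 4 those of H2-K1 (adjusted p = 0.0571) and Psmb9 (0.0586) did not. The 3 obese IgG2a libraries with Hmga2 RNA are all in the low-score set; without libraries 2 and 5 the differences were 2.02 for Psmb8 and 1.18 for H2-K1. Whether lymph node, tumor or liver RNA had a part in the remaining differences was not tested.

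Fits on the libraries of 1 set were an alternative to the fit on all libraries. Under anti-PD-1 in the low-score set, 5 of the 10 were called in obese against lean mice (11.4% of all tested genes). The lean side there held only lean anti-PD-1 libraries 2 and 4. Under IgG2a in the high-score set, with 2 obese and 4 lean libraries, 2 were called (9.16%). With anti-PD-1 against IgG2a in obese mice of the low-score set, 1 was called, Tap1 (3.45%). The IgG2a side there held obese IgG2a libraries 2, 4 and 5. Fitted over all libraries with the set as a term and the antibodies averaged, Nlrc5 rose in obese mice by 0.86 (SE 0.26, adjusted p = 0.0190). It was the only one of the 10 to pass, beside 24.1% of all tested genes. The call was lost without obese anti-PD-1 library 3 (adjusted p = 0.0632) or lean anti-PD-1 library 4 (0.0504).

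The immunoproteasome subunits were also set against their constitutive counterparts within each library. The TPM ratio of Psmb9 to Psmb6, which fill the same position in the proteasome, had a log2 of -2.03 ± 1.38 in obese anti-PD-1 mice (SD, n = 8) and -1.73 ± 0.60 in lean anti-PD-1 mice (SD, n = 5). Under IgG2a it was -1.31 ± 0.91 in obese mice and -1.15 ± 0.58 in lean mice (SD, n = 5 each). Both differences were smaller than the spread between replicates. The same held for Psmb8 to Psmb5, with log2 ratios of 0.05 ± 0.98 in obese and -0.03 ± 0.59 in lean mice under anti-PD-1, and for Psmb10 to Psmb7, with -0.71 ± 0.64 in obese and -0.93 ± 0.38 in lean mice.

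The ratio of H2-K1 to B2m, heavy to light chain, had a log2 of -1.45 ± 0.38 in obese anti-PD-1 mice (SD, n = 8) and -0.89 ± 0.039 in lean anti-PD-1 mice (SD, n = 5). Under IgG2a it was -1.45 ± 0.58 in obese mice and -1.01 ± 0.26 in lean mice (SD, n = 5 each), a difference within the spread between replicates. Split by B cell set, H2-K1 had 0.254 to 0.360 TPM per TPM of B2m in the 9 obese libraries with a low B cell score, against 0.392 to 0.545 in the 3 lean ones, so the ranges did not overlap. In the high-score set it was 0.512 to 0.611 in obese libraries, against 0.457 to 0.631 in lean libraries. The obese range lay inside the lean one. Of the subunit ratios split in the same way, Psmb10 to Psmb7 separated in the high-score set, with 1.03 to 1.36 in obese libraries, against 0.488 to 1.00 in lean libraries, and overlapped in the low-score set. Psmb8 to Psmb5 and Psmb9 to Psmb6 overlapped in both sets in TPM. As a ratio of estimated counts, Psmb8 to Psmb5 separated in the high-score set, with 2.62 to 4.83 in obese and 0.919 to 2.32 in lean libraries. Psmb9 to Psmb6 overlapped in that unit as well.

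**Figure D4:**
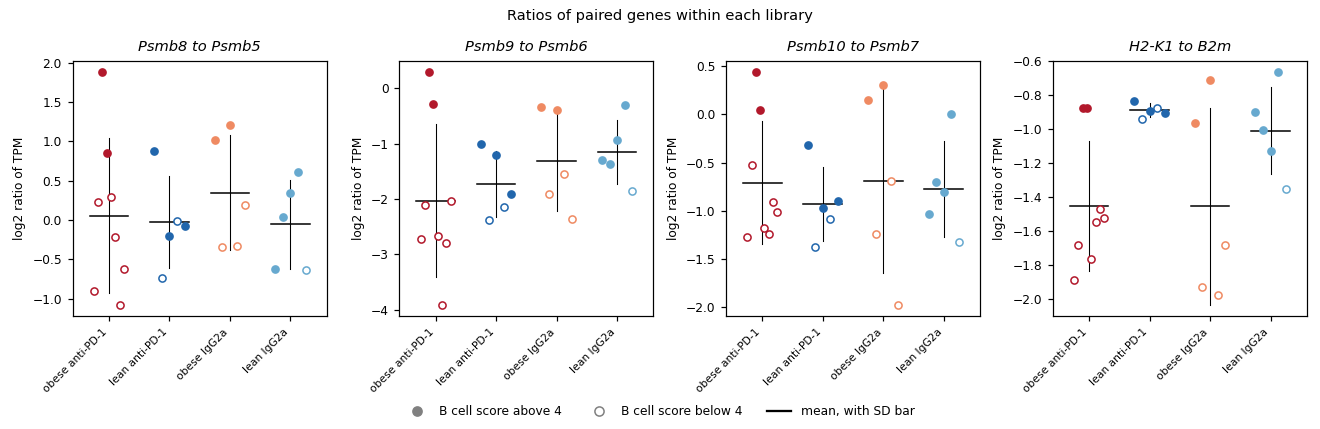
Log2 ratio of TPM within each library for the 3 immunoproteasome subunits over their constitutive counterparts and for H2-K1 over B2m, by group with mean and SD. Filled points are libraries with a B cell score above 4; in obese mice their H2-K1 to B2m ratios, 0.512 to 0.611 on the linear scale, lie above the 0.254 to 0.360 of the open points.

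Among the other class I heavy chain genes, 14 of 16 listed passed the filter, and 4 fell in obese against lean mice under anti-PD-1 (10.1% of all tested genes were called) and 2 under IgG2a (5.79%), with none rising. H2-Q10, on chromosome 17 near H2-D1, stood far apart from H2-K1 and H2-D1. In mice it is a secreted class Ib chain known chiefly as a liver product. It averaged 13.8 ± 6.94 CPM in obese anti-PD-1 libraries (SD, n = 8), against 577 ± 122 CPM in lean anti-PD-1 libraries (SD, n = 5). Under IgG2a it had 40.8, 27.9, 41.9, 23.5 and 148 CPM in obese libraries, against 710, 765, 493, 353 and 528 CPM in lean libraries, and the 148 CPM belonged to the library with Alb RNA. Every obese library lay below every lean one.

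The log2 differences of H2-Q10 were -5.39 under anti-PD-1 (SE 0.47, adjusted p = 1.43e-07) and -3.34 under IgG2a (SE 0.52, adjusted p = 0.000463). With protein-coding transcripts alone they were -5.88 and -3.40, and on log2(TPM + 1) -5.26 and -3.35. In the high-score set they were -4.59 and -3.84, and in the low-score set -5.91 and, under IgG2a with 1 lean library, -3.04 (adjusted p = 0.157). H2-Q10 was also lower with anti-PD-1 than with IgG2a in obese mice (-2.04, SE 0.42, adjusted p = 0.0374). That call ended without most single libraries, and without obese IgG2a library 5 the difference was -1.29 (adjusted p = 0.514). Of the 31-base windows in its main transcript, 21.8% also occur in other genes. Markers of mammary epithelium moved in the same direction: all 8 fell in obese mice under anti-PD-1, where 10.1% of all tested genes were called, and 4 of 8 under IgG2a, where 5.79% were, with sums of 253 to 1481 CPM in obese and 1104 to 4074 CPM in lean anti-PD-1 libraries. The 8 liver markers summed to 6.95 to 39.97 CPM in obese and 58.5 to 112 CPM in lean anti-PD-1 libraries, most of it Alb, and none of the 8 passed there. Under IgG2a they summed to 25.8 to 8954 CPM in obese and 38.0 to 224 CPM in lean libraries. The median sum was lower in obese libraries, 41.5 CPM against 78.7 CPM. Obese IgG2a library 5, with its Alb RNA, lay above every lean library. In the fit, which includes that library, 6 of 8 rose, beside the same 5.79%. The part of either marker list in the H2-Q10 difference was not tested.

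Mr1, the chain that shows vitamin B metabolites to MAIT cells, fell under both antibodies. It had 17.7 CPM at the lowest, 32.3 at the median and 43.2 at the highest in obese anti-PD-1 libraries, against 34.6, 59.1, 50.7, 108 and 56.1 CPM in lean anti-PD-1 libraries, with a log2 difference of -0.99 (SE 0.28, adjusted p = 0.0277). Under IgG2a it averaged 23.8 ± 8.66 CPM in obese mice, against 54.3 ± 15.8 CPM in lean mice (SD, n = 5 each; -1.19, SE 0.32, adjusted p = 0.0308). Over protein-coding transcripts alone the anti-PD-1 difference had the opposite sign (0.40, adjusted p = 0.814) and the IgG2a one did not pass (-0.98, adjusted p = 0.538). A limma fit on log2(TPM + 1) gave -0.35 (adjusted p = 0.499) and -0.79 (adjusted p = 0.232). Both edgeR calls could be lost by leaving out 1 library. The Mr1 difference then ran between -1.16 and -0.66 under anti-PD-1 (edgeR adjusted p 0.0130 to 0.159). Under IgG2a it ran between -1.30 and -1.03 (edgeR adjusted p 0.0195 to 0.0892).

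H2-Q2 and H2-T22, class Ib genes of the Q and T regions, fell under anti-PD-1 and each lost its call when most of the single libraries were left out in turn. H2-Q2 averaged 1.77 ± 1.33 CPM in obese and 5.12 ± 2.25 CPM in lean mice (SD, n = 8 and 5; log2 difference -1.53, SE 0.46, adjusted p = 0.0368). H2-T22 averaged 170 ± 29.6 CPM in obese and 247 ± 35.8 CPM in lean mice (log2 difference -0.54, SE 0.16, adjusted p = 0.0383), and on log2(TPM + 1) its difference was -0.049. Summed over 15 heavy chain genes, so that reads shared among them count once, the log2 differences were -0.68 (SE 0.30, adjusted p = 0.159) under anti-PD-1 and -0.45 (SE 0.34, adjusted p = 0.542) under IgG2a. H2-K1 and H2-D1 held 65.5% to 85.8% of that sum.

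**Figure D5:**
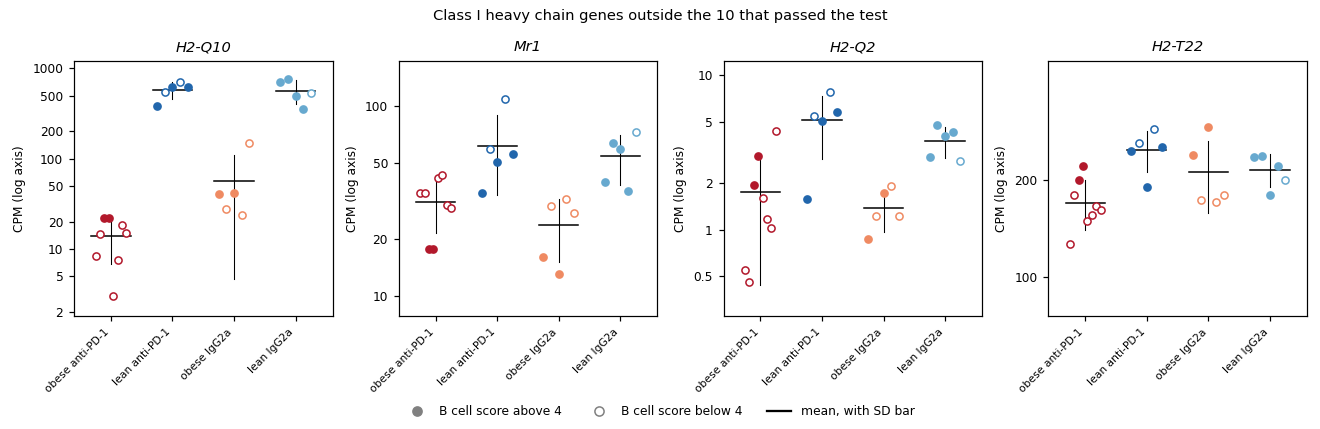
CPM (log axis) per library of the 4 class I heavy chain genes beyond H2-K1 and H2-D1 that passed the test in a comparison of obese with lean mice, with mean and SD; an SD bar that would reach 0 or less is drawn upward only. H2-Q10 lies at 2.97 to 148 CPM in the 13 obese libraries, against 353 to 765 CPM in the 10 lean ones.

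The other lists of genes around the pathway gave no calls in obese against lean mice. None of 8 genes of peptide trimming and loading, 7 of the proteasome activator and assembly, 17 regulators of class I transcription, 5 of interferon gamma and its receptor, 19 interferon gamma induced genes, 7 of MHC class II presentation and 12 receptors that read class I passed in obese against lean mice under either antibody. Of all tested genes, 10.1% passed under anti-PD-1 and 5.79% under IgG2a. The list sizes count genes as listed, before the filter on low counts. The gene of smallest p was named for each list. Calr, a loading chaperone, had a log2 difference of -0.41 (SE 0.16, edgeR adjusted p = 0.117) under anti-PD-1, and Psme4, a proteasome activator, had 0.79 (SE 0.33, adjusted p = 0.130). Nfyc, a subunit of the CCAAT-binding factor, had -0.57 (SE 0.19, adjusted p = 0.0731) under IgG2a, and H2-DMb1, a chain of the class II loading factor, had 0.65 (SE 0.44, adjusted p = 0.403) under anti-PD-1. Ifngr1, an interferon gamma receptor chain, had a log2 difference of 0.73 (SE 0.25, adjusted p = 0.0623) under anti-PD-1, and Ido1, a tryptophan-degrading enzyme, had -2.05 (SE 0.74, adjusted p = 0.0821). Pirb, an inhibitory receptor for class I, had 1.13 (SE 0.39, adjusted p = 0.0914) under IgG2a.

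Ifng itself was barely detected. Ifng had 0 to 0.934 CPM in obese anti-PD-1 libraries and 0 to 1.29 CPM in lean anti-PD-1 libraries, and its log2 differences of -0.18 and -0.95 had SEs of 1.57 and 1.76. Irf1, an interferon-induced activator of class I promoters, had a log2 difference of -0.21 (SE 0.36, edgeR adjusted p = 0.813) under anti-PD-1. Cd8a, the co-receptor that reads class I, ran between 0.350 and 145 CPM in obese anti-PD-1 libraries and between 0.931 and 105 CPM in lean anti-PD-1 libraries, following the B cell sets.

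The 10 genes did not all vary together. Over 23 libraries, on log2 CPM with the mean of each B cell set removed, Pearson's r between pairs ran between -0.66 and 0.85 with a median of 0.50 over 45 pairs. Tap2 and Psmb8 gave the highest value. Nlrc5 was the odd one, with a median r of -0.43 to the other 9 and its lowest r, -0.66, to H2-K1. The r of Nlrc5 to H2-K1 was -0.87 within the low-score set and -0.05 within the high-score set. In the high-score set Nlrc5 ran between -0.69 (H2-D1) and 0.74 (Tap1). Differences between obese and lean libraries were left in all these values. Among the genes whose pattern was most like the mean of the 10 were Rps6 (r = 0.94), Psme1 (0.93), Rps4x (0.90) and H2-T23 (0.90). These values are a description over 23 libraries that share their scaling and tissue mix.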

How the data were processed

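RNA-seq of tumor-adjacent mammary fat pad gave 1 library per mouse (oligo-dT selection and a non-directional kit, per the labels' protocols). The authors deposited estimated counts and TPM for 115088 transcripts in each library. The sources used here do not name the quantification program; the submitters' processing notes name edgeR, limma and GRCm38. Transcript values were summed per gene through GENCODE M21 (114200 transcripts matched, 888 did not, holding at most 0.208% of a library's counts), giving 47311 genes. No mitochondrial gene was among them.

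Rounded gene sums were tested with edgeR 4.0.16 (R 4.3.3) by the two-sided quasi-likelihood test with TMM scaling and 1 mean per group over all 23 libraries. The filter filterByExpr (minimum count 10) left 19882 genes, and p-values were adjusted over them by Benjamini-Hochberg. A call is an adjusted p under 0.05, SE is the log2 difference divided by the square root of F, and CPM are scaled by TMM. The common biological coefficient of variation was 0.805. P-values measure the spread between mice of a group. The script was tested on simulated data.

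Alternatives were DESeq2 1.42.0 (its test and its size factors), limma 3.58.1 on log2(TPM + 1), other filters, length offsets, only the groups compared, the B cell score as a covariate or as 2 sets cut at 4, and each library left out. Chosen after seeing the data were protein-coding transcripts alone, the average over antibodies with the set in the fit on all libraries, and obese IgG2a libraries 2 and 5 left out together. The 10 genes are all described. Of each pathway list the text names the genes called (at most 3 per comparison) or, with none, the gene of smallest p in obese against lean mice, and always Psmb5, Psmb6, Psmb7, Irf1, Ifng and Cd8a. Some genes that this rule and the likeness ranking name are not reported here. The genes, lists and tests were chosen with earlier results of these data known.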

Additional observations from a re-analysis of the deposited data

Results flagged for a closer look

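H2-Q10 had 148 CPM in obese IgG2a library 5, against 23.5 to 41.9 CPM in the other obese IgG2a libraries. Its distance from them was beyond Dixon's 95% limit, in 1 of 72 groups of values examined, where chance gives about 1 in 20. The same library held Alb at 6363 CPM.

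The obesity effect differed between the libraries with a B cell score above 4 and those below 4 for 4 of the 10 genes. The difference, high-score set minus low-score set, was 1.74 for Psmb8, 1.55 for Psmb9, 1.13 for H2-K1 and 0.96 for Tap2 on the log2 scale. The sets were drawn from the data and are not groups of the study, and the low-score set holds 3 lean libraries.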

How the results depend on the processing

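No paired analysis was possible because the labels number no replicates. Over 49 gene results and their alternatives, 1428 of 1632 values kept their direction and their side of the threshold, 119 lost a call, 12 gained one and 73 changed sign. The cause of these changes was not tested, beyond the smaller number of libraries in fits of 1 set. Over all genes, calls in obese against lean mice numbered 1999 under anti-PD-1 (1108 to 2432 with 1 library left out, 574 to 3576 under the other alternatives) and 1152 under IgG2a (495 to 1662, and 255 to 2932). With anti-PD-1 against IgG2a in obese mice they numbered 107 (0 to 643, and 0 to 767). The values that follow are log2 differences.

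Obese against lean under IgG2a changed sign as follows. In libraries with a B cell score above 4 (2 obese and 4 lean), H2-K1 was 0.27, B2m 0.18, Tap2 0.52, Tapbp 0.19 and Psmb9 0.75. There 2 of the 10 genes were called (Psmb8 and Psmb10). Below 4, Psmb8 was -0.44 and Psmb10 -0.40. On log2(TPM + 1), B2m was 0.22, Tap2 0.0996 and Tapbp 0.48. Without obese IgG2a libraries 2 and 5 together, H2-K1 was 0.051, B2m 0.13, Tap2 0.28, Tapbp 0.084 and Psmb9 0.50. DESeq2's size factors and its test both gave 0.0020 for Tap2 and 0.069 for Psmb9. Psmb9 was 0.041 with the B cell score as a covariate, 0.0089 without a filter, 0.026 with a stricter one, 0.061 over protein-coding transcripts and 0.045 with length offsets, which gave 0.165 for Tapbp. Leaving out 1 library gave -0.13 to 0.087 for B2m, -0.30 to 0.17 for Tap2, -0.21 to 0.0070 for Tapbp, -0.060 to 0.64 for Psmb8, -0.35 to 0.29 for Psmb9 and -0.15 to 0.49 for Psmb10.

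Under anti-PD-1, in obese against lean mice, libraries with a B cell score above 4 gave 0.064 for H2-K1, 0.054 for B2m, 0.53 for Tap1, 0.58 for Psmb8, 0.60 for Psmb9 and 0.41 for Psmb10. On log2(TPM + 1), B2m was 0.36, Tapbp 0.54 and Psmb10 0.14, and length offsets gave 0.12 for Tapbp. Mr1 was 0.40 over protein-coding transcripts. Of the 10 genes, 5 were called below a score of 4 (H2-K1, Tap2, Psmb8 and Psmb9 lower, Nlrc5 higher). The lean side of that fit held only lean anti-PD-1 libraries 2 and 4. Tap2 was the 1 gene called with the score as a covariate (-0.67), over protein-coding transcripts (-0.76), with only the groups compared (-0.77) and without obese anti-PD-1 replicate 4 (-0.92), so that leaving out 1 library gave 0 to 1 calls.

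For anti-PD-1 against IgG2a in obese mice, libraries with a score below 4 gave 0.23 for H2-K1, 0.21 for Tapbp and 0.19 for Psmb10, and 1 gene was called (Tap1, lower). Those above 4 gave 0.022 for Tap1 and 0.77 for Nlrc5. On log2(TPM + 1), H2-K1 and B2m were both 0.069 and Tapbp 0.27. Tapbp was 0.012 with the score as a covariate and 0.16 with length offsets, and Nlrc5 0.021 without obese IgG2a libraries 2 and 5. Leaving out 1 library gave -0.46 to 0.041 for H2-K1 and -0.16 to 0.062 for Tapbp.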
